A study of Mus musculus with 12 samples.

Results

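The genes described here are 8 members of interleukin-6 (IL-6) family signalling: the ligand genes Il6, Lif and Osm, the receptor genes Il6ra, Lifr, Osmr and Il6st, and the transcription factor gene Stat3. They were chosen by name, with earlier results of these data known. Each had 1 probe set among the 24675 named genes of the deposited table. They were followed on 12 microarrays of bone marrow-derived macrophages, primary cells grown from the marrow of wild-type mice aged 8 to 10 weeks. The arrays form 4 groups of 3: hepcidin for 1 h, PBS for 1 h, hepcidin for 3 h and PBS for 3 h.

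All cells were grown for 7 days with medium conditioned by L cells as the source of M-CSF, and all wells were changed to DMEM alone for 1 h before hepcidin was added. Cells in the 3 h groups had therefore been longer without the M-CSF source than those in the 1 h groups. Hepcidin is the peptide hormone that closes the iron exporter ferroportin, and the series title ties it to inflammation. Its dose is not settled, since the labels give 1 µg/ml in one protocol and 10 µg/ml in another. Whether replicates are different mice or different wells is not stated, so each p-value reflects array-to-array spread that may be only technical.

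The IL-6 family cytokines described here signal through a shared receptor chain, gp130, encoded by Il6st. IL-6 first binds its own chain, encoded by Il6ra, whereas LIF brings gp130 together with the chain encoded by Lifr, and mouse oncostatin M, the product of Osm, mainly with that encoded by Osmr. The assembled receptors activate JAK kinases, which phosphorylate STAT3, and STAT3 switches on target genes that include Socs3, a brake on the same receptors. In hepatocytes this route from IL-6 through STAT3 is known for inducing the hepcidin gene.

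In outline, 3 receptor chain genes were lower with hepcidin than with PBS after 3 h, Lifr the most, Il6st and Il6ra less. Lifr was also 0.90 higher on the log2 scale with PBS at 3 h than at 1 h. That call held in 5 of the 12 fits that left out 1 array. Between the hepcidin groups Lifr did not differ detectably (-0.14 at 3 h against 1 h). No member passed the test after 1 h. The ligand genes Il6 and Lif and the receptor gene Osmr gave signals as low as those of olfactory receptor genes in all 4 groups, and Stat3 was well above them at a level that did not differ detectably between hepcidin and PBS.

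The table holds RMA expression values, used as log2 values, and no detection calls. The signal of genes with little or no transcript was therefore read from 1073 olfactory receptor genes, whose products serve odour detection in the nose. The median of their means over the 12 arrays was 3.04 and their 95th percentile was 4.70, and a group mean at or under the 95th percentile was called near background. By this rule Il6, Lif and Osmr were near background in all 4 groups. Il6 averaged 3.10, so that 494 of the olfactory receptor genes were at or above it. Osmr averaged 3.54 and Lif 4.37, with 255 and 79 olfactory receptor genes at or above them.

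Osm, at 4.96, lay just above the limit in all 4 groups, with 36 olfactory receptor genes at or above it. Lifr averaged 7.30, and 1 olfactory receptor gene reached its mean. Il6ra at 9.16, Stat3 at 9.22 and Il6st at 9.97 were higher than every olfactory receptor gene. Signals of different probe sets depend on their probes, so these values place each gene against background and do not rank the members by transcript number. For genes near background a log2 difference reads smaller than the true one, and no fold is given for them.

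**Figure D1:**
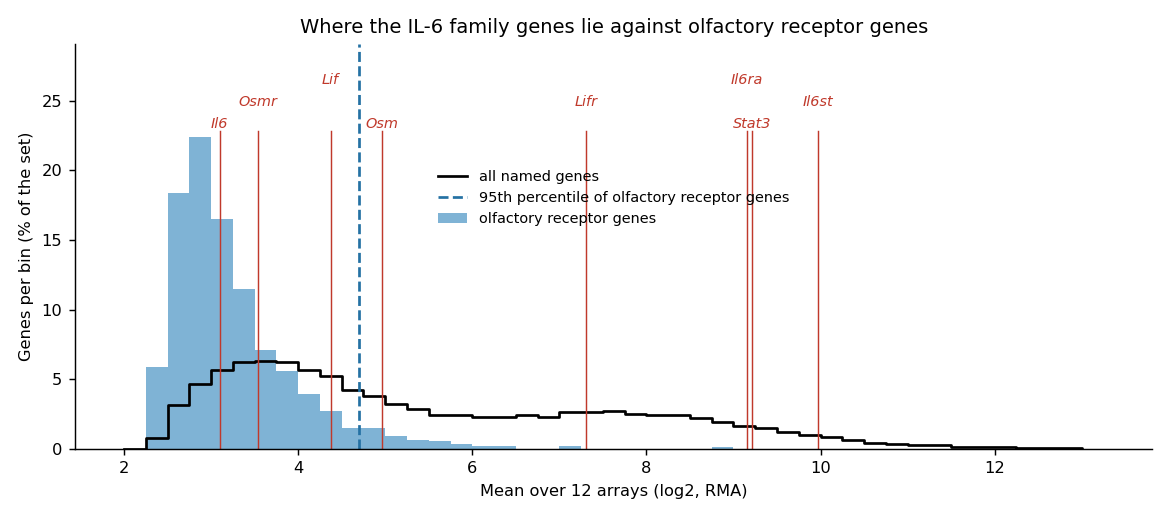
Mean expression over 12 arrays (x axis, log2) of the 1073 olfactory receptor genes (bars, percent of that set per bin) and of all 24675 named genes (black line, percent per bin), with the 8 members as red lines. Il6, Osmr and Lif lie left of the dashed 95th percentile at 4.70, Osm just right of it at 4.96, and Lifr, Il6ra, Stat3 and Il6st far to the right.

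The cells carried the markers of macrophages. All 8 macrophage markers measured were above the limit of 4.70, while 0 of 5 lymphocyte and 0 of 4 mast cell markers were. The counts were 3 of 7 for neutrophils and granulocyte precursors, 1 of 5 for dendritic cells, 4 of 8 for fibroblasts and stroma and 2 of 4 for endothelium. Arrays of a group correlated with r between 0.994 and 0.997 across genes, and with 3 arrays per group the median SE of a log2 difference was 0.10.

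The ligand gene Il6, which encodes the founding cytokine of the family, was listed at 3.07, 3.07 and 3.10 with hepcidin at 1 h, against 2.97, 3.05 and 3.14 with PBS at 1 h. At 3 h the arrays were at 3.09, 3.22 and 3.34 with hepcidin, against 3.08, 3.13 and 2.90 with PBS. The groups overlapped at both times, and the values stayed within the range of olfactory receptor genes. In limma the log2 difference was 0.03 at 1 h (95% interval -0.16 to 0.21, adjusted p = 0.992) and 0.18 at 3 h (95% interval -0.0045 to 0.37, adjusted p = 0.311).

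The promoter of Il6 is shown because some regulators that act on this gene rose, as described further on, while its own signal stayed near background. The window runs from 250 bases before to 50 bases after the annotated start, at chr5:30012864-30013163 on the plus strand of GRCm38.p6, from RefSeq. Capitals mark, in this order, an AP-1 match, a C/EBP match and a match to the NF-kB consensus.
Il6: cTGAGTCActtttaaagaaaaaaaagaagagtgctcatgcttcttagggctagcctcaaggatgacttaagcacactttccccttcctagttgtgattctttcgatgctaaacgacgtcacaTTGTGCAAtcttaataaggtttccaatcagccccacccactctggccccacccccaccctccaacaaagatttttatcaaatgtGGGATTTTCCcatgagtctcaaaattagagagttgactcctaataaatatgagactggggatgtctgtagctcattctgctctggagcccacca
The letters searched on both strands were TGANTCA for AP-1, TTNNGNAA for C/EBP, TTCNNNGAA for STAT factors and the NF-kB consensus by name. Of 32841 promoter windows of this length, 7.81% held the AP-1 letters, 40.7% those for C/EBP, 8.30% those for STAT factors and 4.51% the NF-kB consensus. A match is a description of the letters, not evidence of binding. The motifs matched at separate positions in this window.

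Lif, which encodes leukemia inhibitory factor, was at 4.29, 4.21 and 4.64 with hepcidin at 1 h, against 4.56, 4.26 and 4.32 with PBS at 1 h. At 3 h it was at 4.31, 4.25 and 4.54 with hepcidin, against 4.33, 4.34 and 4.43 with PBS. The groups overlapped at both times. Its log2 difference was 0.00033 at 3 h, with a 95% interval from -0.26 to 0.26.

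Osm encodes oncostatin M, a product of activated macrophages and other leukocytes. It was at 4.96, 4.91 and 5.03 with hepcidin at 1 h, against 5.01, 5.16 and 4.93 with PBS at 1 h. At 3 h it was at 4.87, 5.06 and 4.93 with hepcidin, against 4.79, 4.94 and 4.99 with PBS. The groups overlapped at both times, and the log2 differences were -0.06 at 1 h (adjusted p = 0.955) and 0.05 at 3 h (95% interval -0.14 to 0.23, adjusted p = 0.839). The highest and lowest of the 4 group means, in the PBS groups of 1 h and 3 h, differed by 0.12 (adjusted p = 0.715 in limma).

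Lifr encodes the receptor chain that LIF shares with other cytokines of the family. After 3 h its arrays were at 6.98, 7.03 and 6.72 with hepcidin, against 8.08, 8.31 and 7.85 with PBS. The groups lay far apart, with a gap between the highest hepcidin array and the lowest PBS array. Lifr averaged 6.91 ± 0.17 with hepcidin and 8.08 ± 0.23 with PBS (SD, n = 3 arrays each). It was 2.25-fold lower with hepcidin (log2 difference -1.17, SE 0.16, 95% interval -1.52 to -0.83, limma adjusted p = 6.24e-04). By size this was place 18 among the 624 genes called lower with hepcidin at 3 h, whose median was -0.46.

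After 1 h Lifr stood at 7.34, 7.11 and 6.70 with hepcidin, against 7.33, 7.14 and 7.08 with PBS. The groups overlapped and the hepcidin arrays were spread more widely (SD 0.32 with hepcidin, 0.13 with PBS). The log2 difference was -0.13 (SE 0.16, adjusted p = 0.948).

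Lifr was the 1 member that passed the test between the PBS groups, and it was higher at 3 h than at 1 h by 0.90 on the log2 scale (SE 0.16, 1.87-fold, adjusted p = 0.0348). Of all genes 0.207% passed in that direction, 51 in number, and Lifr took place 5 among them by size. This call held in 5 of the 12 fits that left out 1 array, with adjusted p-values from 0.0166 to 0.138. It was lost without any 1 of the 6 PBS arrays and without hepcidin 1 h replicate 2 (adjusted p = 0.0575). Among the hepcidin arrays Lifr did not differ detectably between the times, with a log2 difference of -0.14 at 3 h against 1 h (95% interval -0.49 to 0.20, adjusted p = 0.731). The order of the group means was thus PBS at 3 h, then PBS at 1 h, hepcidin at 1 h and hepcidin at 3 h. The arrays of PBS at 3 h overlapped with no other group. Those of hepcidin at 1 h overlapped with PBS at 1 h and with hepcidin at 3 h, which did not overlap with each other.

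The hepcidin effect on Lifr was more negative at 3 h than at 1 h by 1.04 on the log2 scale (difference -1.04, SE 0.22), with an adjusted p of 0.0510, just above the threshold. With the replicate number as a block it was 0.00899, and without hepcidin 1 h replicate 3, the lowest Lifr array of its group, 0.0203. That was the 1 of the 12 fits leaving out 1 array in which Lifr passed, and the adjusted p reached 0.133 in the others. Among the remaining alternatives it reached 0.152. The comparisons at 3 h, between the PBS groups and between the times share arrays, so their values for Lifr are not independent of each other.

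Il6ra encodes the chain that binds IL-6 itself. After 3 h it was at 8.94, 8.93 and 8.82 with hepcidin, against 9.44, 9.30 and 9.21 with PBS. The groups did not overlap, and all 3 hepcidin arrays were also below every array of the 1 h groups. Il6ra averaged 8.90 ± 0.06 with hepcidin and 9.32 ± 0.12 with PBS (SD, n = 3 arrays each). It was 1.34-fold lower with hepcidin than with PBS (log2 difference -0.42, SE 0.08, 95% interval -0.59 to -0.26, limma adjusted p = 0.00519).

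At 1 h Il6ra was at 9.20, 9.13 and 9.18 with hepcidin, against 9.32, 9.24 and 9.16 with PBS. These groups overlapped (log2 difference -0.07, adjusted p = 0.940). Between the PBS groups it differed by 0.08 (adjusted p = 0.829) and between the hepcidin groups by -0.27 (adjusted p = 0.0626), where the arrays did not overlap. The effect at 3 h minus that at 1 h was -0.35 (SE 0.11, adjusted p = 0.219), so a difference between the times was not shown.

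Osmr encodes the chain through which mouse oncostatin M mainly acts. At 3 h its arrays were at 3.57, 3.77 and 3.85 with hepcidin, against 3.51, 3.72 and 3.64 with PBS, and at 1 h at 3.38, 3.46 and 3.48 with hepcidin, against 3.41, 3.42 and 3.28 with PBS. Hepcidin and PBS overlapped at each time, while both 3 h groups lay above both 1 h groups. The log2 difference for hepcidin was 0.07 at 1 h (adjusted p = 0.947) and 0.11 at 3 h (adjusted p = 0.599). Between the times it was 0.29 with hepcidin (adjusted p = 0.0818) and 0.26 with PBS (adjusted p = 0.269), at a signal near background throughout.

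Il6st encodes gp130, the chain that the receptors of IL-6, LIF and oncostatin M share. After 3 h it was at 9.74, 9.76 and 9.59 with hepcidin, against 10.18, 10.28 and 10.25 with PBS. Hepcidin arrays were the lowest of all 12 and PBS arrays the highest of all 12 at that time. Il6st averaged 9.70 ± 0.09 with hepcidin and 10.24 ± 0.05 with PBS (SD, n = 3 arrays each). It was 1.46-fold lower with hepcidin than with PBS (log2 difference -0.54, SE 0.07, 95% interval -0.70 to -0.39, limma adjusted p = 4.85e-04).

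After 1 h Il6st was at 9.93, 10.08 and 9.97 with hepcidin, against 9.87, 9.95 and 9.97 with PBS. The groups overlapped (log2 difference 0.06, adjusted p = 0.940). Il6st was the 1 member whose hepcidin effect differed between the times in the test of that difference, at -0.61 (SE 0.10, adjusted p = 0.0125), a comparison in which 0.507% of all genes passed on the negative side. Between 3 h and 1 h it fell with hepcidin by 0.30 (adjusted p = 0.0303), where 2.61% of all genes passed on that side, and was 0.31 higher with PBS, which did not pass (adjusted p = 0.0974). The fall with hepcidin over time held in 8 of the 12 fits that left out 1 array. It was lost without hepcidin 1 h replicate 2 (adjusted p = 0.132) or 3 (0.0766) and without hepcidin 3 h replicate 1 (0.0526) or 3 (0.114). The difference between the times held in all 12.

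The promoters of the 3 receptor genes that were lower with hepcidin than with PBS at 3 h are shown to allow comparison of their letters. All come from RefSeq on GRCm38.p6 and span 250 bases before to 50 bases after the annotated start: Il6ra at chr3:89913147-89913446 on the minus strand, Il6st at chr13:112463820-112464119 and Lifr at chr15:7129322-7129621, both on the plus strand. Capitals mark C/EBP matches.
Il6ra: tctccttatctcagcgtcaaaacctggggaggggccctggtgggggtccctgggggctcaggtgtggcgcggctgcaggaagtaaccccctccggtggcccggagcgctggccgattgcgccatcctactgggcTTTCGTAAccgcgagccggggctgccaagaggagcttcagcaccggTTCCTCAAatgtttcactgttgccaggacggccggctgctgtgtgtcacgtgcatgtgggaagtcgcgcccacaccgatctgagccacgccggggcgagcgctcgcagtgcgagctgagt
Il6st: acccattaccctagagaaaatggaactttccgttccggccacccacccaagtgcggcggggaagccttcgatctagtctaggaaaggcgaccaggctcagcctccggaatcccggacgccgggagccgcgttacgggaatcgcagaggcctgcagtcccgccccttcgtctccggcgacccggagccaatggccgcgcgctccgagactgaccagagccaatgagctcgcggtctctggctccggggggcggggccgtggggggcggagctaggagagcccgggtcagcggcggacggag
Lifr: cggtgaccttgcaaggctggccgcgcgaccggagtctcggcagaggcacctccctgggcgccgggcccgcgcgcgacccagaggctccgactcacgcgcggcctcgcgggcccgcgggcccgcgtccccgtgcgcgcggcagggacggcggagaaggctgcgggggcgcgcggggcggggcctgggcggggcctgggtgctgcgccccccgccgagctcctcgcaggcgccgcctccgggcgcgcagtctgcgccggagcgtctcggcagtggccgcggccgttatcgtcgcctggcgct
The Il6ra window held 2 C/EBP matches and none of the other 3 motifs, and the Il6st and Lifr windows held no match to any of the 4. A second Lifr window, at chr15:7140292-7140591, also held none. The absence of these letters from a window of 300 bases says nothing about binding elsewhere. Of the 8 members, 7 had at least 1 window in the table.

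Stat3 encodes the transcription factor that the receptors activate by phosphorylation, a change that mRNA arrays do not measure. At 3 h its arrays were at 9.28, 9.26 and 9.37 with hepcidin, against 9.31, 9.24 and 9.38 with PBS. At 1 h they were at 9.16, 9.21 and 9.13 with hepcidin, against 9.03, 9.14 and 9.11 with PBS. The groups overlapped at both times, and each 3 h array was higher than every 1 h array of either treatment.

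For Stat3 the log2 difference between hepcidin and PBS was 0.07 at 1 h (95% interval -0.07 to 0.22, adjusted p = 0.919) and -0.0055 at 3 h (95% interval -0.15 to 0.14, adjusted p = 0.980). Between the times Stat3 was higher at 3 h by 0.14 with hepcidin (adjusted p = 0.336) and by 0.22 with PBS (adjusted p = 0.221), and neither passed.

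**Figure D2:**
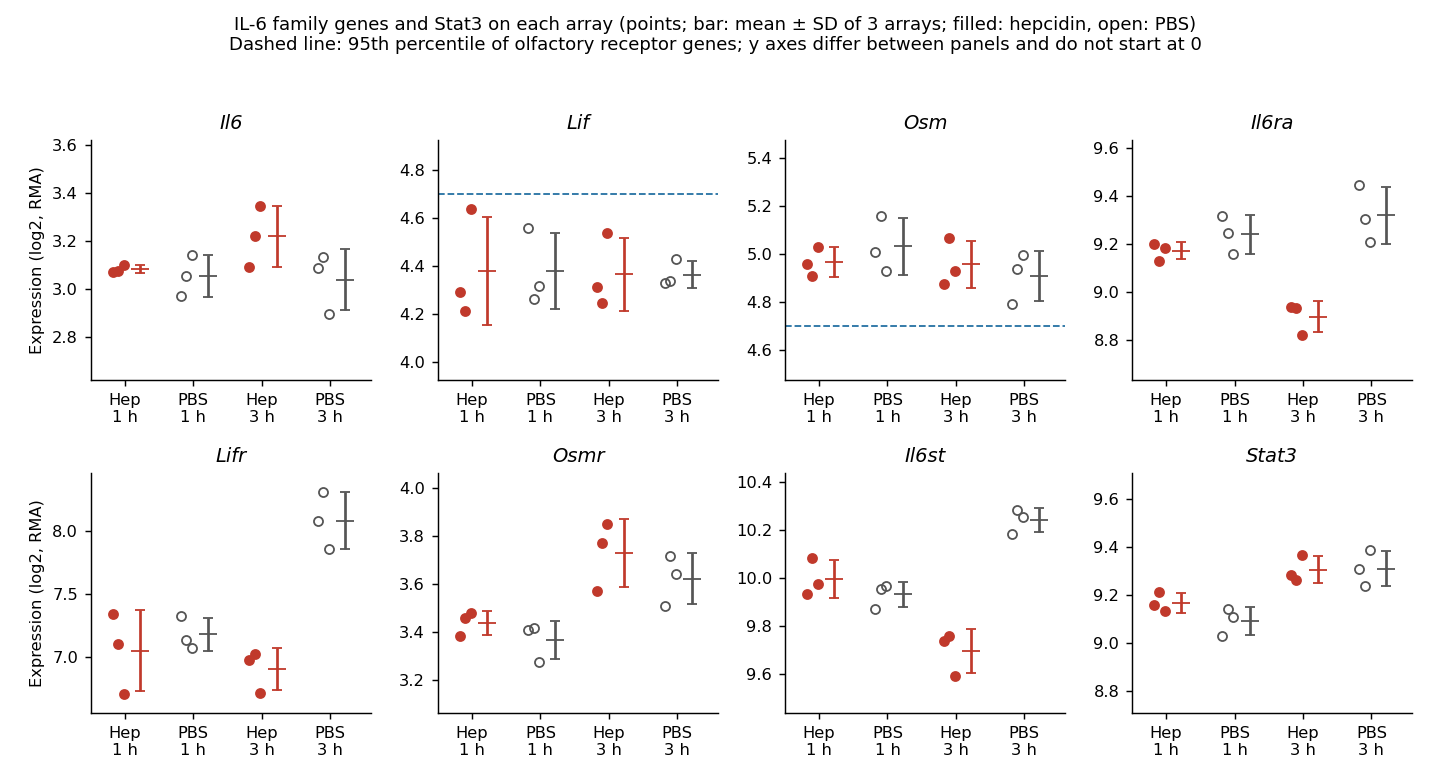
Expression (y axis, log2) of the 8 members on each array, with the mean and SD of 3 arrays beside the points, for hepcidin and PBS at 1 h and at 3 h; the dashed line is the background limit of 4.70 where it falls in the panel. In Il6ra, Lifr and Il6st the 3 hepcidin arrays of 3 h lie below all PBS arrays of 3 h, and in the other 5 genes these groups overlap.

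Across the members, limma called 0 of 8 at 1 h, and 0 of 8 had an unadjusted p under 0.05, where 6.82% of all genes did. The unmoderated linear model also called 0. Of all genes 0.559% passed at 1 h. At 3 h 3 of 8 passed, all lower, where 2.53% of all genes passed on that side. Among the 13019 genes with a mean above the background limit, 4.63% passed on the lower side, against 3 of the 5 members above it. The members and the lists described further on were chosen with earlier results of these data known. Shares of all genes are therefore no chance baseline for their counts. The median log2 difference of the members at 3 h was -0.0026, and that of all genes was 0.02.

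Groups that did not overlap were seen in 0 of 8 members between hepcidin and PBS at 1 h, where 12.3% of all genes had them, and in 3 of 8 at 3 h, where 21.7% did. Between the PBS groups it was 4 of 8 (Lifr, Il6st, Osmr and Stat3, all higher at 3 h), against 17.7% of all genes. Between the hepcidin groups it was also 4 of 8 (Il6ra and Il6st lower at 3 h, Osmr and Stat3 higher), against 20.1% of all genes. All 3 members called lower at 3 h kept their call in each of the 12 fits that left out 1 array. Their adjusted p-values in limma were up to 0.0262 for Il6ra, 0.00396 for Il6st and 0.00438 for Lifr. In bulk RNA, fewer cells of a type and less RNA per cell cannot be told apart.

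**Figure D3:**
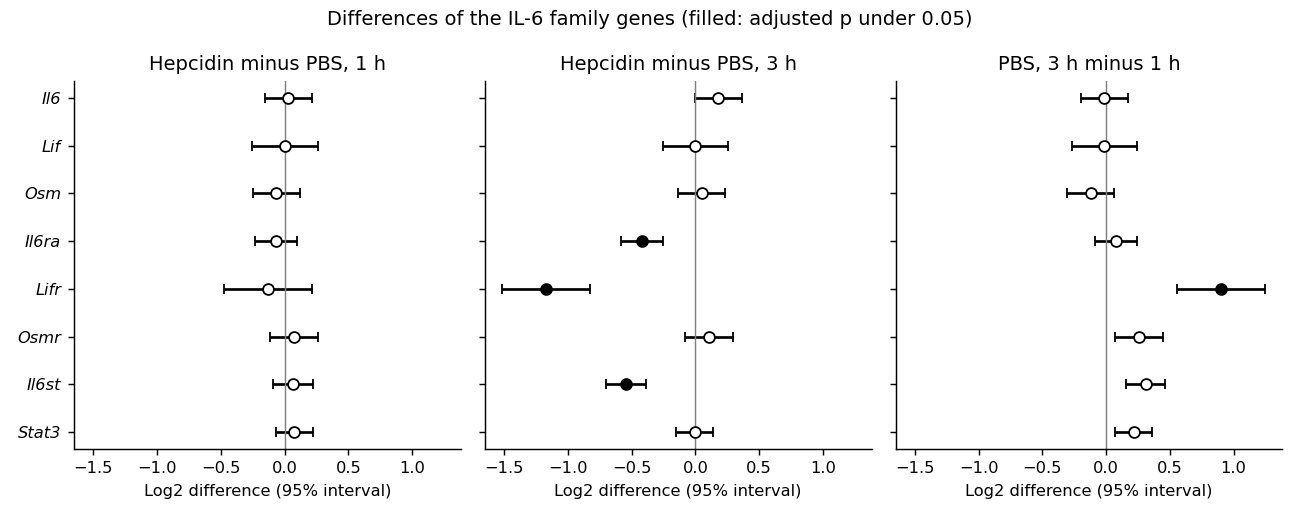
Log2 differences of the 8 members with 95% intervals (x axis) for hepcidin minus PBS at 1 h, hepcidin minus PBS at 3 h, and PBS at 3 h minus PBS at 1 h; filled points passed an adjusted p of 0.05. At 3 h Lifr stands at -1.17, Il6st at -0.54 and Il6ra at -0.42, and between the PBS groups Lifr stands at 0.90.

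At 3 h, 2 of the 8 macrophage markers were higher with hepcidin than with PBS and 1 was lower. Of all genes 2.8% passed on the higher side and 2.53% on the lower. Cd14 (0.80) and Spi1 (0.30) rose and Mertk, an efferocytosis receptor, fell (-1.08, SE 0.19, adjusted p = 0.00375). Here and in the lists below, rose and fell mean higher and lower with hepcidin than with PBS at the same time. The call of Spi1 was lost in a fit of only the groups compared (adjusted p = 0.0648). The mean of the list on an array was 10.80 to 10.95 with hepcidin and 10.82 to 10.95 with PBS at 3 h. That of the fibroblast list was 4.49 to 4.68 with hepcidin and 4.39 to 4.54 with PBS, and 0 of its 8 markers passed. The endothelial list mean was 4.50 to 4.61 with hepcidin and 4.62 to 4.72 with PBS at 3 h, so that the groups did not overlap, and 0 of its 4 markers passed. Of these markers Cdh5 and Tek were under the background limit, while Pecam1 and Kdr were above it. The part of either list in the receptor results was not tested.

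Further genes of the family stayed mostly low. Of 11 other ligand and receptor genes measured, 5 had a mean over the 12 arrays above the background limit. At 1 h limma called 0 of 11, with 1 at an unadjusted p under 0.05, where 0.559% of all genes were called and 6.82% had such a p. At 3 h Ebi3, which encodes a subunit of interleukin-27, rose (log2 difference 0.48, SE 0.09, adjusted p = 0.00930), and it was the 1 of 11 that passed. Its means were 8.67 with hepcidin and 8.18 with PBS. Of all genes 2.8% passed on the higher side at 3 h, and the median of this list was 0.09.

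Of 9 JAK and other STAT genes, 2 kinase genes rose at 3 h and 0 fell, where 2.8% of all genes passed on the higher side. At 1 h limma called 0 of 9, with 1 at an unadjusted p under 0.05, where 0.559% of all genes were called and 6.82% had such a p. All 9 had a mean over the 12 arrays above the background limit. At 3 h Jak2, a kinase bound to gp130, rose 1.85-fold (log2 difference 0.89, SE 0.08, adjusted p = 1.90e-05), with means of 9.44 with hepcidin and 8.56 with PBS. Tyk2, a further kinase of the same class, rose by 0.44 (SE 0.08, adjusted p = 0.00563). Jak1 differed by 0.03 (adjusted p = 0.888), and the median of the 9 genes was 0.0039.

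Of 4 genes for the release of the IL-6 receptor from the cell surface, 2 rose at 3 h and 0 fell, where 2.8% of all genes passed on the higher side and 2.53% on the lower. ADAM17 is a protease that sheds this receptor, and the product of Rhbdf2, iRhom2, carries ADAM17 to the surface in immune cells. At 3 h Adam17 rose by 0.46 (SE 0.06, adjusted p = 9.55e-04), with means of 10.58 with hepcidin and 10.13 with PBS. Rhbdf2 rose 1.88-fold (0.91, SE 0.08, adjusted p = 1.24e-05), with means of 8.47 with hepcidin and 7.57 with PBS. Adam10 differed by -0.13, in the direction of Il6ra, and did not pass (adjusted p = 0.359). At 1 h limma called 0 of 4, with 2 at an unadjusted p under 0.05, where 0.559% of all genes were called and 6.82% had such a p.

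Among 10 brakes on gp130 and STAT3 signalling, Socs3 rose at 1 h (log2 difference 1.77, SE 0.13, adjusted p = 1.25e-05) and at 3 h (1.42, adjusted p = 2.91e-05). It was the 1 gene of the list past the threshold at 1 h, where 0.527% of all genes passed on the higher side, at a list median of -0.0050. At 3 h, where 2.8% passed on that side, Ptpn2, a phosphatase that acts on JAK and STAT proteins, rose too, by 0.29 (adjusted p = 0.0343), a call that 5 of the 12 fits leaving out 1 array kept. It was lost without PBS 1 h replicate 2, hepcidin 1 h replicate 3, PBS 3 h replicate 2 or 3, or any hepcidin 3 h array, at adjusted p-values up to 0.145. It was also lost with median centring and with only the groups compared (adjusted p up to 0.0978).

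Of 16 STAT3 target genes, all with a mean over the 12 arrays above the background limit, 8 rose at 1 h and 0 fell, while 0.527% of all genes passed on the higher side. The largest were Pim1, a kinase gene, at 1.83 (SE 0.09), Socs3, Bcl3 at 1.32 (SE 0.10) and Junb at 1.09 (SE 0.09). At 3 h 5 rose and 0 fell, where 2.8% of all genes passed on the higher side, with Cebpd at 1.70 (SE 0.08), Pim1 at 1.56, Socs3 and Bcl3 at 1.39. Junb was lost at 3 h without hepcidin 3 h replicate 3 (adjusted p = 0.0598) and without PBS 3 h replicate 2 (0.0626) or 3 (0.0604), and with only the groups compared (0.0754). The median log2 difference of the list was 0.27 at 1 h and 0.26 at 3 h, against -0.0022 and 0.02 for all genes. Many of these genes are also targets of other factors such as NF-kB.

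Of 11 regulators of Il6 transcription and mRNA decay measured, 5 rose at 1 h and 7 at 3 h, and 0 fell at either time, while Il6 itself stayed near background. On the higher side 0.527% of all genes passed at 1 h and 2.8% at 3 h. Cebpd is counted here and among the STAT3 targets, and Socs3 among the brakes and the STAT3 targets. The counts of these lists are therefore not independent. Nfkbiz, whose product supports transcription of Il6, rose by 3.08 at 1 h (SE 0.16) and 1.63 at 3 h. The genes for the C/EBP factors, which bind the kind of site marked in the Il6 promoter, rose as well, Cebpb by 0.60 at 1 h and 0.97 at 3 h, and Cebpd by 0.82 at 1 h. Cebpd lay under the background limit with PBS at 1 h, at 4.54, so its difference at 1 h is not exact.

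Genes that limit Il6 mRNA were among those that rose. Zc3h12a, which encodes the RNase Regnase-1 that cuts Il6 mRNA, rose 2.48-fold at 1 h (1.31, SE 0.10, adjusted p = 1.56e-05) and by 0.97 at 3 h. Zfp36, which encodes an mRNA-destabilising protein, rose 2.84-fold at 1 h (1.51, SE 0.09, adjusted p = 1.09e-06) and by 0.51 at 3 h. The list median was 0.28 at 1 h and 0.51 at 3 h.

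**Figure D4:**
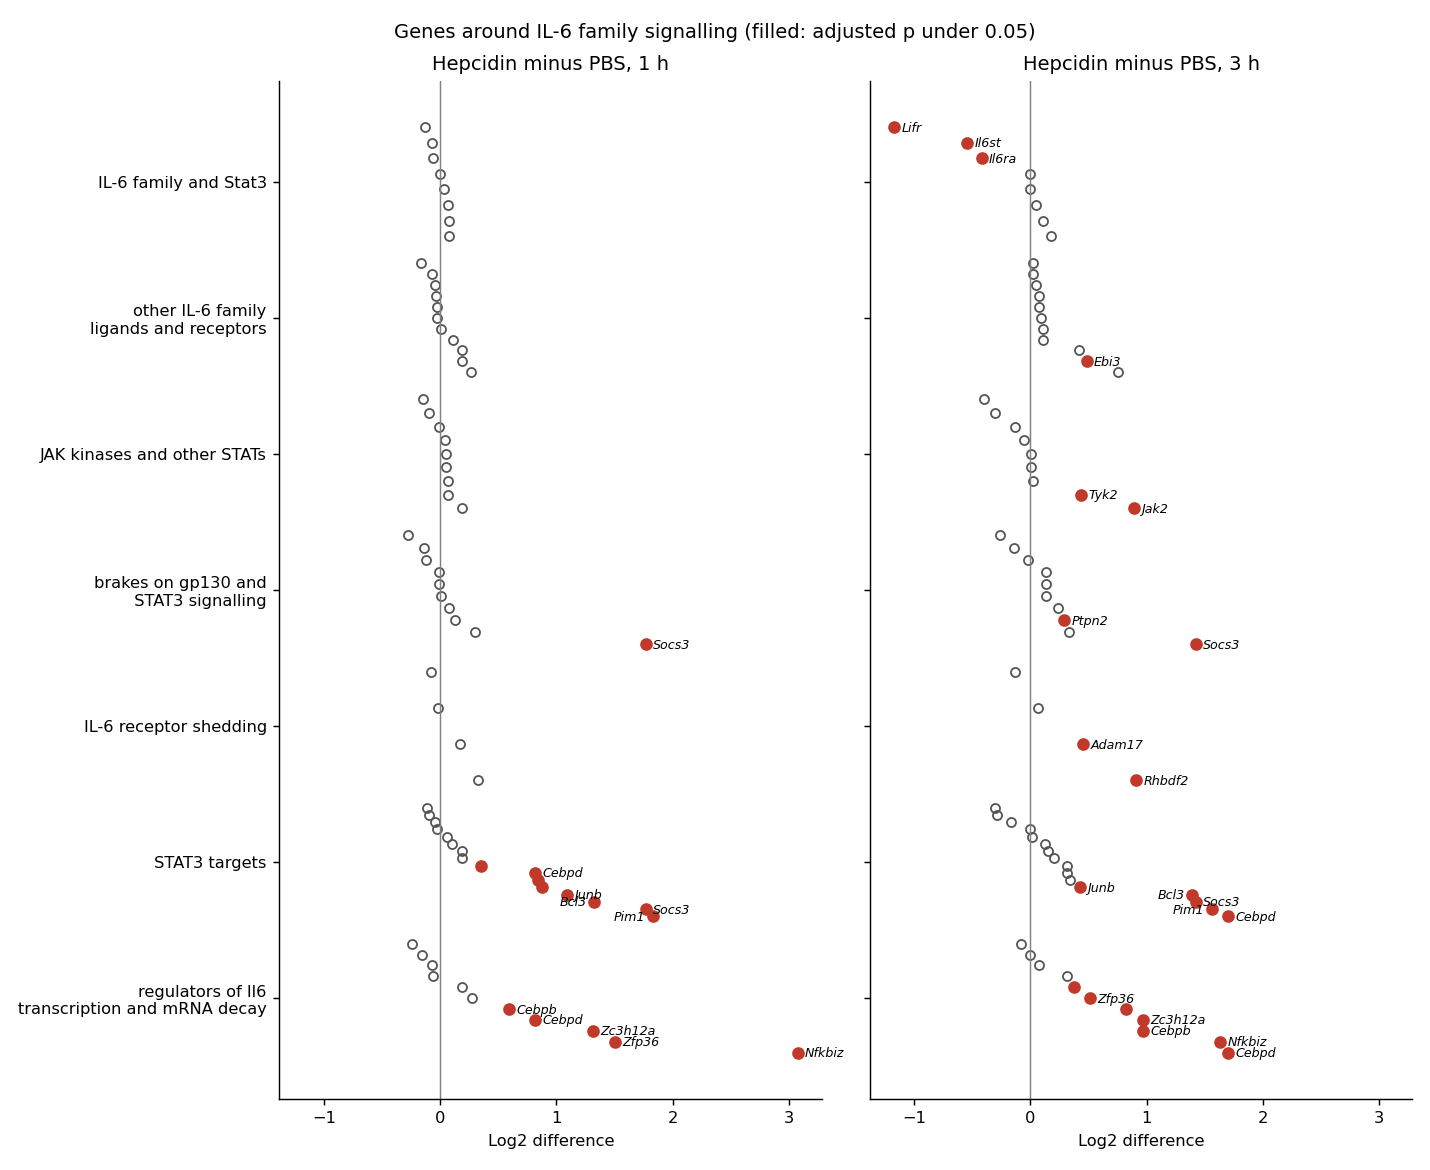
Log2 differences between hepcidin and PBS (x axis) at 1 h and 3 h for the members and for 6 lists of genes around IL-6 family signalling (rows), 1 point a gene and sorted by size within a row; filled points passed an adjusted p of 0.05, and names are given for genes chosen by the naming rule. At 3 h Lifr, Il6st and Il6ra lie left of 0, while Jak2, Adam17, Rhbdf2 and Socs3 lie right of it.

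Likeness was measured by the root mean square difference of values centred on each gene's mean over the 12 arrays. The genes most like each of the 3 receptor genes called lower at 3 h were found in this way. For Il6st, whose own values spread by 0.20 on this scale, they were Cmas at 0.05, Pip4k2a at 0.06 and Cpt1a at 0.06. Cmas encodes an enzyme that activates sialic acid and Cpt1a the carnitine palmitoyltransferase of the mitochondrial outer membrane. For Il6ra, with a spread of 0.17, they were Cdkn1b, the gene of a cell cycle inhibitor, at 0.05, Pml at 0.06 and Helb at 0.06.

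For Lifr, with a spread of 0.49, the nearest were the pseudogene Nlrp1c-ps and Hpgd, which encodes a prostaglandin-degrading enzyme, both at 0.20, and Ccr2, a chemokine receptor gene, at 0.21. Their likeness is looser than that of the other 2 sets. Between PBS at 3 h and 1 h Hpgd stood at 1.15 and Ccr2 at 0.64, as Lifr did at 0.90, and between hepcidin and PBS at 3 h Hpgd was at -1.32 and Ccr2 at -0.72. These genes were chosen for this pattern, so the values describe it and test nothing. Among the members, Il6ra and Il6st differed from each other by 0.13, Il6st and Lifr by 0.35, and Il6ra and Lifr by 0.39.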

How the data were processed

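Total RNA of 12 samples was taken up in Trizol, labelled with biotin and measured on Affymetrix arrays with the whole-transcript kit, as the labels' protocols say. The deposited table holds 1 value per probe set, and RMA and Partek are named in the submitters' processing notes without version or role. The deposited values were used as log2, because RMA gives log2 values, although no label writes the base. Of 25429 probe sets, 24675 had 1 gene symbol in the platform annotation and were tested, and 754 had none. No filter on expression was applied.

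Differences came from limma 3.58.1 in R 4.3.3, with 4 group means on 12 arrays, 8 residual and 4.11 prior degrees of freedom, and Benjamini-Hochberg adjustment across all genes within a comparison (threshold 0.05). Comparisons were hepcidin against PBS at 1 h and at 3 h, the difference of these effects, PBS at 3 h against 1 h and, added after the data had been seen, hepcidin at 3 h against 1 h. Intervals are 95% intervals from limma's moderated SE. The fit was tested on simulated data.

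The members and lists were chosen with earlier results of these data known. Named were all members, up to 4 genes past the threshold per list and time with the largest differences, and the 3 genes nearest to each member that passed. Cd14, Spi1 and Mertk and genes named at small differences (Jak1, Adam10) were chosen after their values were seen. Lists were described by counts and medians, with no set test. Of the genes on the lists, 11 of 13 further family genes, 9 of 10 JAK and STAT genes and 11 of 12 Il6 regulators were measured here, and the others were not analysed here. Promoter sequences are RefSeq's for GRCm38.p6, and the build behind the array values was not given in the sources used here. Alternatives were the replicate block, other priors, filters and scalings, all probe sets, fits of only the groups compared, a looser threshold and each array left out.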

Additional observations from a re-analysis of the deposited data

Results flagged for a closer look

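For 12 of the genes named above the hepcidin effect at 3 h differed from that at 1 h by limma's test of the difference itself. Of all 24675 genes 254 passed this test. Apart from the members, the named genes had been picked by their values on these arrays, so the count of 12 is no result about them. Among the receptors Il6st passed at -0.61 (adjusted p = 0.0125), while Lifr, at the larger difference of -1.04, did not (adjusted p = 0.0510). Jak2 at 0.70 (adjusted p = 0.0106), Rhbdf2 at 0.58 (adjusted p = 0.0231) and the macrophage marker Cd14 at 0.57 (adjusted p = 0.0260) had the larger effect at 3 h. Cebpd stood at 0.88 (adjusted p = 0.00448), but its 1 h effect was measured against a PBS mean of 4.54, under the background limit, so the size of this difference is not exact and may be overstated. Nfkbiz at -1.44 (adjusted p = 0.0109), Zfp36 at -0.997 (adjusted p = 0.00224) and Junb at -0.66 (adjusted p = 0.0281) had the larger effect at 1 h. A further 4, Cmas (-0.60), Nlrp1c-ps (-0.64), Pip4k2a (-0.48) and Helb (-0.40), had been chosen for values like those of Il6st, Lifr or Il6ra on these arrays, so their values only describe that likeness.

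The differences of Il6st, Jak2, Cebpd, Nfkbiz and Zfp36 passed in each of the 12 fits that left out 1 array. That of Rhbdf2 was kept when hepcidin replicate 1 of either time or the second PBS array of 1 h was left out, and lost without any other array (adjusted p up to 0.0688). That of Junb was kept without hepcidin 3 h replicate 1 or 3 and lost without any other (up to 0.0822). That of Cd14 was kept when the second PBS array of 1 h or the third array of either 3 h group was left out, and lost without any other (up to 0.0814). That of Helb was lost in all 12 of these fits (adjusted p up to 0.135). Those of Nlrp1c-ps (up to 0.115) and Pip4k2a (up to 0.133) were lost in most, and that of Cmas in some (up to 0.0558). The difference of Nfkbiz was lost with the unmoderated linear model (adjusted p = 0.0575), as was that of Junb (0.0586), and those of Rhbdf2 (0.0769) and Cd14 (0.110) with median centring.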

How the results depend on the processing

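The counts of members past the threshold at 1 h (0) and at 3 h (3) were the same under every alternative run. The 3 differences called at 3 h passed in each, at adjusted p-values up to 0.0411 for Il6ra, 0.00910 for Il6st and 0.00914 for Lifr. For the difference between the times the count was 1 and became 2, with Lifr added, under the replicate block, the trended and robust prior, genes above the median mean and an adjusted p under 0.1, and leaving out arrays gave 1 to 2. Between the PBS groups the count was 1. It was 2, with Il6st added, under the trended and robust prior, genes above the median mean and an adjusted p under 0.1, and 0 with the unmoderated linear model and with only the groups compared. Leaving out arrays gave 0 to 1. Between the hepcidin groups the count was 1, and 2 under the replicate block, the trended prior and genes above the median mean, 3 at an adjusted p under 0.1, 0 with median centring and with only the groups compared, and 0 to 1 with an array left out. The cause was not tested.

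Near background were 3 members, 2 with the 90th percentile of the olfactory receptor genes (Lif then above it) and 3 with the median of all probe sets. The main fit did not take the replicate numbers as pairs, and no label says whether they are. Deviations of same-numbered arrays correlated at 0.06 to 0.21, over 0.1 in 4 of 6 pairs. Each of the 12 arrays correlated best with its own number. A pairing by number may therefore be present, and the main fit leaves it out. The block moved the calls at 3 h to 1615, against 1316 without it, and those between the PBS groups to 240, against 111. The count at 3 h was 805 with only the groups compared and 837 (without PBS 3 h replicate 3) to 1287 with an array left out. Between the PBS groups it was 319 under the trended prior, 333 with genes above the median mean, 248 at an adjusted p under 0.1, 64 with median centring, 7 with only the groups compared and 23 to 126 with an array left out. For the difference between the times it was 254, and 433, 412 and 391 under the first 3 of these and 141 to 234 with an array left out. Between the hepcidin groups it was 1246, and 616 with only the groups compared and 721 to 1178 with an array left out. No called member changed sign, and 38 uncalled values of members did. The labels give no batch. The arrays carry no detection calls, so differences of Il6, Lif and Osmr are limited by background. Osm, at 4.96, lay just above the limit, with 36 olfactory receptor genes at or above it, so its differences may be limited too.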
